A study of Mus musculus with 10 samples.

Results

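Genes that bind, take up, store and hydrolyse lipid were compared between metastasis-associated macrophages (MAMs) and resident alveolar macrophages (RAMs) of the mouse lung. The 10 genes, taken by symbol from the count tables, were Fabp1, Fabp4, Fabp5, Lpl, Plin2, Cidec, Dgat1, Dgat2, Pnpla2 and Mgll, out of 24460 genes listed in both the count and the FPKM tables. All 10 passed the filter on low values, which kept 11571 genes whose FPKM averaged 1 or more in one group or the other. Mgll passed it through its level in RAMs alone, with a mean FPKM of 0.513 in MAMs. RNA sequencing covered 5 MAM libraries and 5 RAM libraries from wild type C57BL6/J mice aged 8 to 10 weeks. MAMs were CD45+LY6C-MRC1+ macrophages with high forward scatter, positive for the macrophage antigen encoded by Adgre1 and CD11B+CD11C-, sorted from lung metastases under 1 mm that had been dissected out and pooled from 2 to 4 mice. The metastases grew from E0771-LG cells, a mouse mammary carcinoma line, injected into the tail vein of female mice at 6 to 8 weeks. RAMs passed the same gate but were CD11C+CD11B-, and came from normal lungs. Both digestions contained inhibitors of transcription. The groups thus differed in surface phenotype as well as in the state of the lung, and these cannot be told apart. Each group came from sorted bulk cells, so that fewer cells of a type and less RNA per cell cannot be told apart either.

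Fatty acids enter macrophages by uptake from lipoproteins, where lipoprotein lipase releases them, and are carried in the cytosol by fatty acid binding proteins. Acyl-CoA:diacylglycerol acyltransferases complete triacylglycerol, which is stored in droplets coated by perilipins and CIDE proteins, and lipases release the fatty acids again in steps that end with monoacylglycerol lipase. Alveolar macrophages live on the surfactant film of the airspace, take up and degrade its lipid, and depend on the nuclear receptor PPAR-gamma for it.

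Of the 10 lipid genes, 8 were lower in MAMs (Fabp1, Fabp4, Lpl, Cidec, Dgat1, Dgat2, Pnpla2 and Mgll), 1 was higher (Fabp5) and 1 was not called (Plin2). A call required a change of more than 2-fold together with a p under 0.05 in the quasi-likelihood F-test of edgeR, adjusted by Benjamini-Hochberg over all 11571 genes, and every adjusted p given is of this kind. By this rule 30.3% of all genes tested were called, 15.1% lower and 15.3% higher in MAMs. The median log2 fold change of the lipid genes was -1.77, and that of all genes tested was -0.02. For 9 of the 10, every library of one group lay outside the range of the other, which was the case for 44.9% of all genes tested. The counts of 8 and 1 were the same with any single library left out. The changes came in 3 sizes. The log2 fold changes of Fabp1, Cidec and Mgll were between -6.80 and -6.62, that of Dgat2 was -3.69, and those of Fabp4, Lpl, Dgat1 and Pnpla2 were between -2.01 and -1.13. In MAMs, Fabp1, Cidec and Mgll were at 0.897%, 0.985% and 1.02% of their RAM level, near the lowest percent of genes abundant in RAMs.

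**Figure D1:**
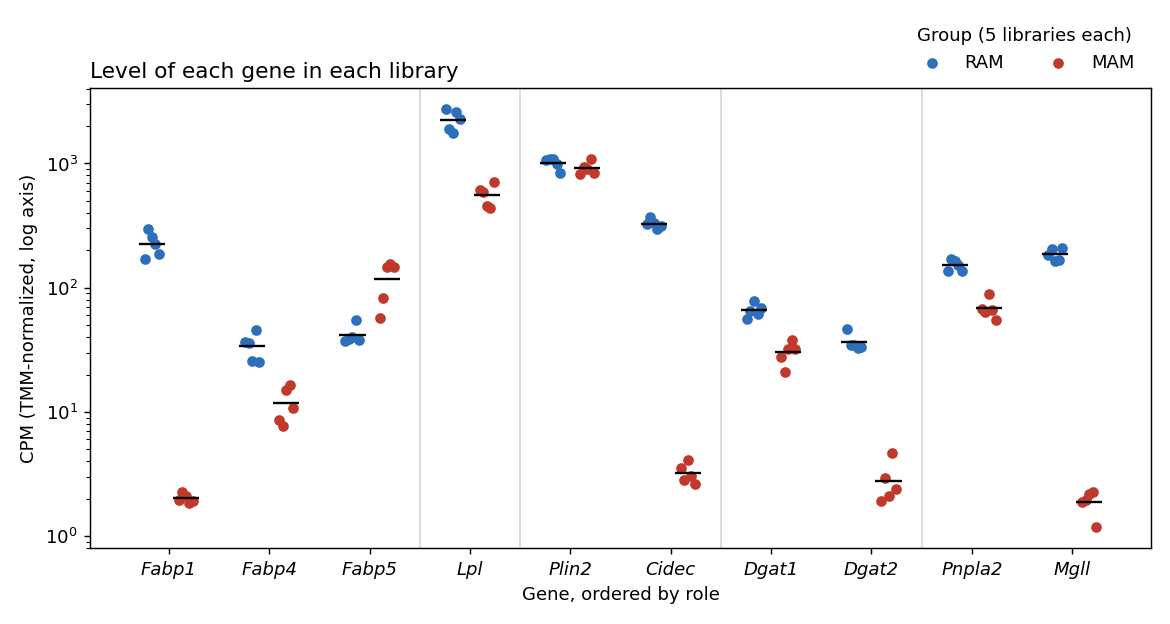
Level of the 10 lipid genes in each library, in CPM on a log axis, with genes ordered by role. Points are libraries (blue RAM, red MAM, 5 each) and black lines are group means. MAM points lie about 2 orders below RAM points for Fabp1, Cidec and Mgll, overlap them for Plin2, and lie above them for Fabp5.

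Each gene was placed on GRCm38 with the GENCODE annotation. Fabp1 lies at chr6:71199827-71205023 on the plus strand, Cidec at chr6:113424634-113435760 on the minus strand and Mgll at chr6:88724412-88828360 on the plus strand. These 3 lipid genes share chromosome 6 but lie far apart on it. The share of other genes on that chromosome was not taken, so no meaning is drawn from this. Fabp4 at chr3:10204088-10208576 (minus strand) and Fabp5 at chr3:10012548-10016607 (plus strand) are 187481 bases apart, with 6 annotated genes between them, among them the related genes Pmp2 and Fabp9. Lpl is at chr8:68880491-68907448 (plus), Plin2 at chr4:86648386-86670060 (minus), Dgat1 at chr15:76502015-76511953 (minus), Dgat2 at chr7:99153658-99182719 (minus) and Pnpla2 at chr7:141455198-141460743 (plus). Mgll is overlapped by 5 annotated genes with only Gm symbols, on both strands, and the other 9 by none. Whether counting used strand is not given in the sources used here, so reads of an antisense partner of Mgll cannot be told apart from its own. Few stretches of 100 bases were shared with transcripts of other genes, 0.382% of those of Fabp5, 0.896% of those of Lpl and 0.224% of those of Plin2, and none for the other 7.

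The promoters of the 3 genes with the lowest fold changes are shown beside that of Plin2, which was not called. RefSeq promoter sequences (GRCm38.p6, the 250 bases before a transcription start) matched 5 of the 10 genes, in 7 windows, for Fabp1, Plin2, Cidec, Pnpla2 and Mgll. All are written 5′ to 3′ on the strand of the gene, and capitals mark the motif TATAAA. The Fabp1 window is chr6:71199629-71199878 on the plus strand. The Cidec window is the farther upstream of its 2, chr6:113435761-113436010 on the minus strand. The Mgll window is the first of its 2, chr6:88724162-88724411 on the plus strand, and the Plin2 window is chr4:86670060-86670309 on the minus strand.
Fabp1: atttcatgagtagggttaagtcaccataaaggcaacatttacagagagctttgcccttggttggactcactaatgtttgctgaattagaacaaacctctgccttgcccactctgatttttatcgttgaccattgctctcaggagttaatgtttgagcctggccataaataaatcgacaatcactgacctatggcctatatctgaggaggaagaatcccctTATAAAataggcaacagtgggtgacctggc
Cidec: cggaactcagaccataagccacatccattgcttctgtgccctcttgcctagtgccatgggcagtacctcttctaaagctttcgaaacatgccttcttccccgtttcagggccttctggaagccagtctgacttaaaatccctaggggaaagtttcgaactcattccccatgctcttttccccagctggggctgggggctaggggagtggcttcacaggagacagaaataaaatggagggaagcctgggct
Mgll: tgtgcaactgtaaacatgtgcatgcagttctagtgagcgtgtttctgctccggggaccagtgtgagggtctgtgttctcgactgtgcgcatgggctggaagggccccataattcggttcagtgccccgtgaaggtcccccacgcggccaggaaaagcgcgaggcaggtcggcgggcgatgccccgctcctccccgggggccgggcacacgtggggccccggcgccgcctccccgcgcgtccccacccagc
Plin2: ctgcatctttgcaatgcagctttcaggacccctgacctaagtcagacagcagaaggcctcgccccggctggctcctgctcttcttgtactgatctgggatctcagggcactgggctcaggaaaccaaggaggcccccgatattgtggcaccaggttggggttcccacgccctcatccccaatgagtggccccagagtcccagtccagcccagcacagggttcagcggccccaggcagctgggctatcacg

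The motif TATAAA, searched on both strands, stood once in the Fabp1 window, with its first base 30 bases before the RefSeq transcription start. The GENCODE gene begins at chr6:71199827, inside this window and upstream of the motif. It was in 1 of the 7 windows of the lipid genes and in 12.4% of all 32851 promoter windows of the same length. The perfect DR1 element, the direct repeat with a spacer of 1 base that PPAR and RXR dimers bind, was in 0 of the 7 windows and in 0.0335% of all windows on either strand, so that these letters were rare in windows of this kind. The windows differed in CpG content. The Mgll window held 23 CpG dinucleotides, an observed over expected ratio of 0.796, against 2 and 0.175 in Fabp1, 4 and 0.230 in Cidec and 6 and 0.256 in Plin2. The median ratio of all windows was 0.374. The windows not shown had ratios of 0.299 (Cidec), 1.15 (Mgll) and 0.482 (Pnpla2). Whether CpG content goes with the change of a gene was not tested.

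Fatty acid binding proteins were read first. Fabp1, the form most abundant in liver, stood at 170, 296, 255, 226 and 185 CPM in RAM replicates 1 to 5, and at 1.97, 2.29, 2.12, 1.85 and 1.92 CPM in MAM replicates 1 to 5. MAM libraries were within a narrow band, with a coefficient of variation of 8.64% against 22.7% in RAMs, and the groups were far apart. The MAM mean was 0.897% of the RAM mean, near the lowest percent among genes abundant in RAMs. Subtracting 1% of the RAM level left 0 Fabp1 counts in each MAM library, so the MAM values rest on those low counts. Their source was not tested. MAM libraries were also pools of 2 to 4 mice. On the log2 scale the change was -6.80 ± 0.156 (standard error) with an adjusted p of 1.1e-13 in edgeR, the 41st lowest of all genes tested. In FPKM, which is scaled by transcript length, Fabp1 had a mean of 747 in RAMs and was the 64th most abundant gene tested, and it had a mean of 6.41 and rank 6949 in MAMs.

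Fabp4, the form known from adipocytes and macrophages, was at 36.3, 36.1, 25.7, 46.0 and 25.2 CPM in the RAM libraries and at 8.66, 7.76, 15.1, 16.5 and 10.8 CPM in the MAM libraries. No MAM library reached the lowest RAM library. Fabp4 was 2.88-fold lower in MAMs (log2 fold change -1.53, standard error 0.270, adjusted p = 6.1e-05 in edgeR).

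Fabp5, the form known from skin, was the one lipid gene that rose. It was at 37.5, 38.3, 40.2, 55.0 and 38.3 CPM in the RAM libraries and at 56.6, 82.0, 147, 154 and 146 CPM in the MAM libraries. MAM replicates 1 and 2 were well below the other 3, and MAM replicate 1 was next to the highest RAM library, although the groups did not overlap. Fabp5 was 2.80-fold higher in MAMs (log2 fold change 1.48, standard error 0.307, adjusted p = 7.1e-05 in edgeR). MAM replicates 1 and 2 were also the lowest MAM libraries for Fabp4.

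The other 7 genes of the family included 2 that could be tested, Fabp7 and Fabp3. Fabp3 passed the filter through its level in MAMs alone, so that the count of 2 is no measure of the family. Fabp7, known from the brain, had 256, 211, 98.6, 62.5 and 119 CPM in the MAM libraries and 0.991 to 2.30 CPM in the RAM libraries (log2 fold change 6.65, adjusted p = 2.6e-09 in edgeR). Its order within MAMs was not that of Fabp5, since replicates 1 and 2 held the most Fabp7. Fabp3, the heart form, was low in both groups, at 1.23 CPM in MAMs and 0.366 in RAMs (log2 fold change 1.73, adjusted p = 0.0309, same test and adjustment).

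The makeup of the family was compared within libraries, on FPKM, over Fabp1, Fabp3, Fabp4, Fabp5 and Fabp7. Their summed FPKM was 652 to 1091 in RAMs and 257 to 439 in MAMs. Fabp1 made up 83.1% to 90.1% of the sum in RAMs and 1.41% to 2.30% in MAMs. The MAM sum was mainly Fabp7, 35.7% to 84.4%, and Fabp5, 10.5% to 49.4%, where in RAMs Fabp7 took 0.140% to 0.443% and Fabp5 2.96% to 5.17%. The share of Fabp4 overlapped, with 3.43% to 12.2% in MAMs and 5.85% to 11.8% in RAMs. The most abundant form was thus Fabp1 in all 5 RAM libraries. Among MAMs it was Fabp7 in replicates 1, 2, 3 and 5 and Fabp5 in replicate 4.

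Lpl, which encodes lipoprotein lipase, was at 2728, 1907, 1769, 2583 and 2289 CPM in the RAM libraries and at 608, 592, 457, 435 and 707 CPM in the MAM libraries. It was lower in all MAM libraries, by 4.03-fold (log2 fold change -2.01, standard error 0.179, adjusted p = 1.6e-08 in edgeR). Lpl was still the second most abundant of the lipid genes in MAMs, with a mean FPKM of 125.

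Genes of fatty acid uptake and activation moved in both directions. Of 18 listed, 10 could be tested, of which 4 were called higher and 2 lower, with a median log2 fold change of 0.44. All genes tested were called higher in 15.3% and lower in 15.1%. Lipg, which encodes endothelial lipase, rose from 0.576 to 29.0 CPM (log2 fold change 5.67, adjusted p = 1.1e-06 in edgeR) and ranged from 12.8 to 55.9 CPM over the MAM libraries. It passed the filter through its level in MAMs alone. Cd36, a fatty acid and lipoprotein scavenger receptor, rose from 308 to 1076 CPM (log2 fold change 1.80, adjusted p = 9.2e-09, same test). Slc27a1, a fatty acid transport protein, rose from 55.4 to 160 CPM (log2 fold change 1.53, adjusted p = 7.4e-05, same test). Angptl4, an inhibitor of lipoprotein lipase, fell with Lpl, from 127 to 6.41 CPM (log2 fold change -4.31, adjusted p = 3.8e-10, same test). Lower Lpl thus stood beside lower Angptl4 and higher Cd36.

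The 2 droplet coat genes differed in what they showed. Plin2, the perilipin found on droplets of most cells, was at 1071, 1087, 1080, 993 and 836 CPM in the RAM libraries and at 821, 937, 899, 1089 and 837 CPM in the MAM libraries. The groups overlapped, and the highest of all 10 was a MAM library. On the log2 scale the change was -0.14 ± 0.102 (standard error) with an adjusted p of 0.197 in edgeR. With upper-quartile scaling or library totals alone, which shift the median of all genes from -0.02 to -0.18 and -0.24, Plin2 was at -0.31 and -0.37 and its adjusted p was 0.0113 and 0.00413, still under a 2-fold change. Plin2 was among the most abundant transcripts of both groups, with a mean FPKM of 508 in RAMs, rank 92, and 481 in MAMs, rank 147, of the genes tested.

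Cidec, which promotes fusion and growth of droplets, was at 326, 372, 331, 295 and 314 CPM in the RAM libraries and at 3.52, 2.81, 4.11, 3.08 and 2.61 CPM in the MAM libraries. Its fold change was near that of Fabp1 (log2 fold change -6.67, standard error 0.128, adjusted p = 9.1e-15 in edgeR). Cidec in MAMs was at 0.985% of its RAM level and Fabp1 at 0.897%, both near the lowest percent of genes abundant in RAMs. The like sizes therefore do not show an equal fall. The MAM libraries held 150 to 184 Cidec counts and the RAM libraries 14134 to 24799. Within libraries, the ratio of Cidec to Plin2 in FPKM was 0.398 to 0.488 in RAMs and 0.00349 to 0.00580 in MAMs.

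Of 12 other droplet genes, 8 could be tested, with 1 called higher, 2 lower and a median log2 fold change of -0.03. Among all genes tested, 15.3% were called higher and 15.1% lower. The 2 called lower, Plin1 and Cideb, passed the filter through their levels in RAMs alone, so that their count is no measure of the list. Hilpda, an inhibitor of the lipase encoded by Pnpla2, rose from 13.5 to 63.7 CPM (log2 fold change 2.24, adjusted p = 6.4e-07 in edgeR). Plin1, the perilipin of adipocytes, and Cideb, the CIDE protein of liver, fell from 2.67 to 0.0880 CPM and from 1.85 to 0.0572 CPM (log2 fold changes -4.88 and -4.98, adjusted p = 7.5e-04 and 1.6e-04, same test), both at low levels. Hsd17b11, a droplet-associated dehydrogenase and one of the abundant genes of the list, had a log2 fold change of -0.21 (adjusted p = 0.205, same test).

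Both acyltransferases that complete triacylglycerol fell, by different amounts. Dgat1 was at 55.5, 64.9, 78.3, 61.7 and 68.9 CPM in the RAM libraries and at 27.8, 20.9, 32.3, 37.9 and 32.1 CPM in the MAM libraries. It was 2.18-fold lower in MAMs with no overlap (log2 fold change -1.13, standard error 0.166, adjusted p = 1.4e-05 in edgeR), close to the limit of 2. With limma on log2(FPKM + 1) its log2 fold change was -0.92, under that limit.

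Dgat2, the enzyme of the other family with this activity, was at 46.3, 34.8, 34.5, 32.4 and 33.1 CPM in the RAM libraries and at 1.93, 2.92, 2.12, 4.63 and 2.40 CPM in the MAM libraries. It was 12.9-fold lower (log2 fold change -3.69, standard error 0.240, adjusted p = 6.5e-09 in edgeR). In FPKM both genes stood at like levels in RAMs, with a ratio of Dgat2 to Dgat1 of 0.786 to 1.47 and a median of 0.842. In MAMs the ratio was 0.0753 to 0.214, so that Dgat1 was the more abundant in every MAM library.

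Of 16 other genes of glycerolipid and sterol ester synthesis, 12 could be tested. An adjusted p under 0.05 was reached by 7 upward and 4 downward, against 28.9% and 27.3% of all genes tested (56.2% in either direction). The fold change passed 2 as well for 2 upward and 1 downward, against 15.3% and 15.1% of all genes tested. Lpin1, a phosphatidate phosphatase, fell from 328 to 17.3 CPM (log2 fold change -4.24, adjusted p = 3.1e-14 in edgeR). Soat2, which esterifies cholesterol, rose from 0.879 to 8.59 CPM (log2 fold change 3.28, adjusted p = 0.0037, same test), with RAM libraries from 0.0639 to 2.19 CPM. Soat2 passed the filter through its level in MAMs alone, and Gpam, which was not called, through its level in RAMs alone. Agpat2, an acyltransferase acting earlier in the pathway, rose from 5.55 to 13.6 CPM (log2 fold change 1.29, adjusted p = 1.2e-04, same test). The abundant Soat1 and Agpat4 were at log2 fold changes of 0.39 and 0.85, both under the 2-fold limit.

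The 2 lipases among the 10 genes, which act at the start and the end of triacylglycerol hydrolysis, both fell, whereas Lipe, the lipase of the step between them, rose. Pnpla2, which encodes adipose triglyceride lipase, was at 136, 171, 164, 152 and 136 CPM in the RAM libraries and at 66.9, 63.8, 89.1, 65.8 and 55.0 CPM in the MAM libraries. It was 2.23-fold lower in MAMs, with no overlap (log2 fold change -1.16, standard error 0.132, adjusted p = 9.5e-07 in edgeR).

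Mgll, which encodes monoacylglycerol lipase, was at 185, 203, 165, 167 and 208 CPM in the RAM libraries and at 1.89, 1.97, 2.17, 2.28 and 1.18 CPM in the MAM libraries. All MAM libraries were low, and replicate 5 was the lowest. Its log2 change was -6.62 ± 0.180 (standard error) with an adjusted p of 1.6e-13 in edgeR. The 2 lipases were at like FPKM in RAMs, with a ratio of Mgll to Pnpla2 of 0.688 to 1.08, against 0.0126 to 0.0207 in MAMs.

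**Figure D2:**
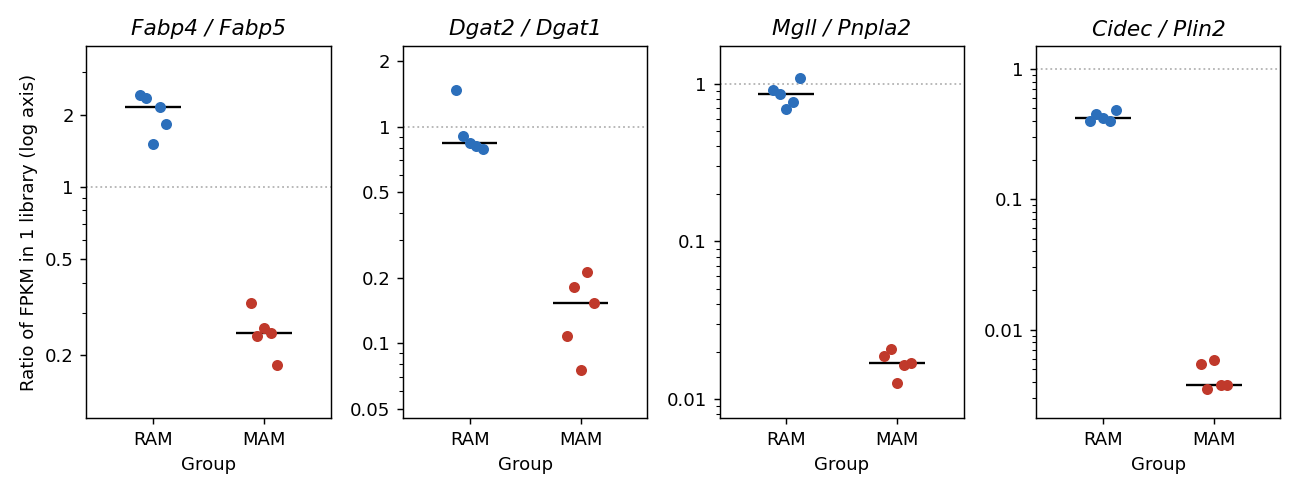
Ratio of FPKM between genes of 1 role within each library, on log axes that differ between panels, for Fabp4 to Fabp5, Dgat2 to Dgat1, Mgll to Pnpla2 and Cidec to Plin2. Points are libraries (blue RAM, red MAM, 5 each), black lines are medians and the dotted line is a ratio of 1. In no panel do the groups overlap, and the Fabp4 to Fabp5 ratio is above 1 in every RAM library and below 1 in every MAM library.

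The FPKM ratio of Fabp4 to Fabp5 was 1.52 to 2.41 in RAMs and 0.182 to 0.328 in MAMs. Its side of 1 depends on the scaling by length, since in CPM Fabp4 was below Fabp5 in every RAM library as well. A ratio within a library does not depend on how libraries were scaled, and shows unequal change rather than which gene moved.

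Among other genes of lipolysis, 11 of 14 could be tested, with 7 called lower, 1 higher and a median log2 fold change of -1.69. Of all genes tested, 15.1% were called lower and 15.3% higher. Pnpla3, G0s2 and Abhd6 passed the filter through their levels in RAMs alone. Genes that enter in this way are lower in MAMs from the start, so that the count and median are no measure of the list. Pnpla3, a lipase related to Pnpla2, fell from 6.62 to 0.0257 CPM (log2 fold change -8.03, adjusted p = 2.2e-07 in edgeR), with at most 4 counts in a MAM library. G0s2, an inhibitor of adipose triglyceride lipase, and Abhd6, a monoacylglycerol hydrolase, also fell (log2 fold changes -3.36 and -3.07, adjusted p = 2.5e-04 and 8.2e-05, same test). Abhd12, another hydrolase of monoacylglycerols, fell from 387 to 159 CPM (log2 fold change -1.29, adjusted p = 4.2e-10, same test). Lipa, the acid lipase of lysosomes and the most abundant of the list, had 1068 CPM in MAMs and 1161 in RAMs (log2 fold change -0.12, adjusted p = 0.383, same test). The 1 gene of the list called higher was Lipe, which encodes hormone-sensitive lipase. It rose from 6.76 to 22.1 CPM (log2 fold change 1.71, adjusted p = 4.7e-06, same test).

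Of 7 transcription factors known for control of lipid genes, 6 could be tested, with 1 called higher and 2 lower. The shares over all genes tested were 15.3% and 15.1%. Pparg fell from 201 to 36.6 CPM (log2 fold change -2.45, adjusted p = 1.4e-10 in edgeR) and its partner Rxra from 508 to 182 CPM (log2 fold change -1.49, adjusted p = 1.4e-10, same test). Nr1h3, which encodes the oxysterol receptor LXR-alpha, rose from 27.8 to 69.0 CPM (log2 fold change 1.31, adjusted p = 6.4e-06, same test). Cebpa had a log2 fold change of -0.71 (adjusted p = 6.5e-05, same test), under the 2-fold limit.

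Over the 6 lists together, 49 of 74 related genes could be tested, of which 11 were called higher and 14 lower in MAMs. The shares over all genes tested were 15.3% and 15.1%. The counts include the genes, given above, that passed the filter through a single group. Their median log2 fold change was 0.09, against -1.77 for the 10 lipid genes and -0.02 for all genes tested. Whether the 10 differed from the related genes was not tested.

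**Figure D3:**
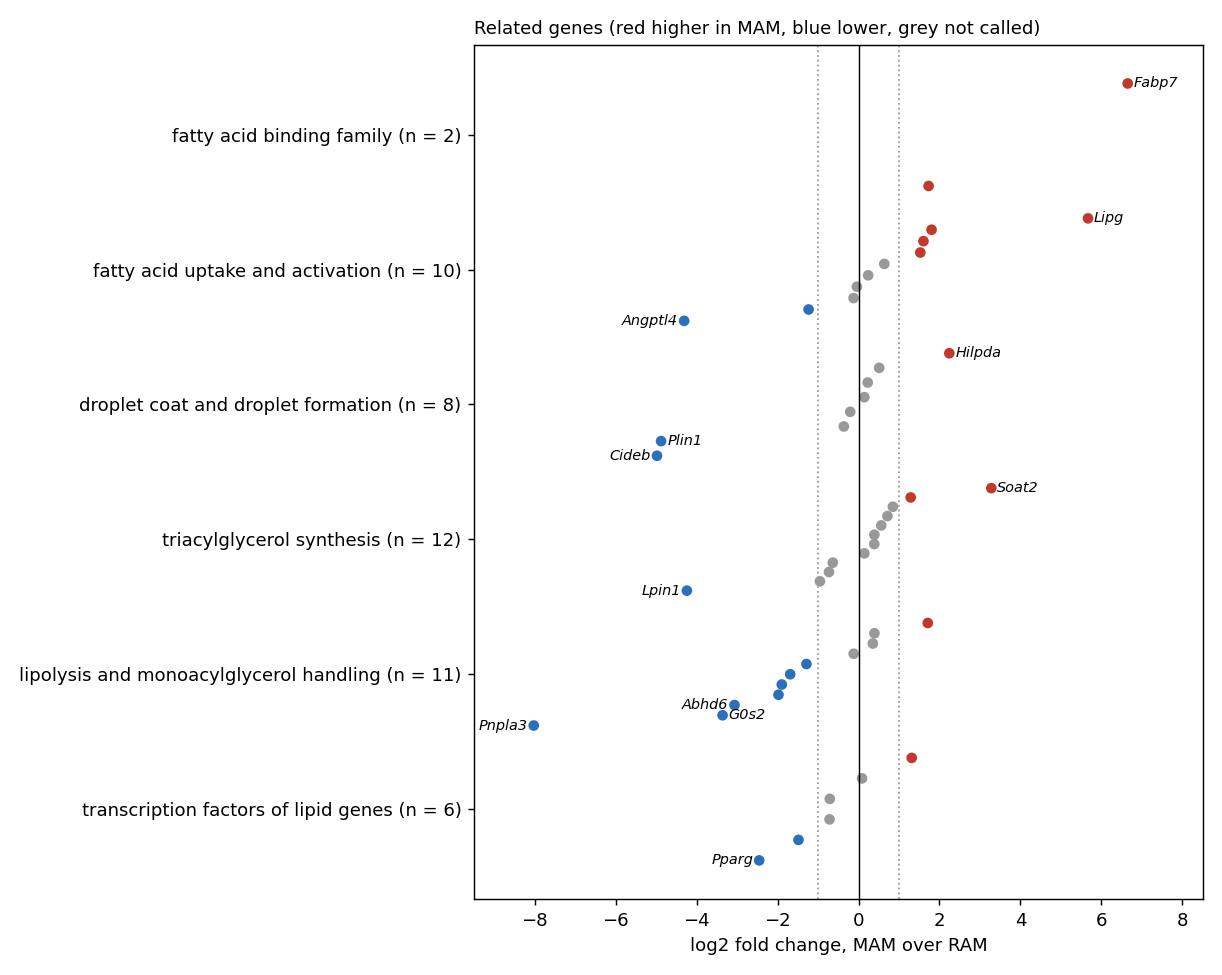
Log2 fold change of MAM over RAM (horizontal axis) for the 49 related genes tested, in rows by list. Each point is a gene, red where called higher in MAM, blue where called lower and grey where not called, with dotted lines at a 2-fold change and names for genes past a 4-fold change. Genes of lipolysis lie mostly to the left, the 2 of the fatty acid binding family lie to the right, and the other lists hold genes on both sides.

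**Figure D4:**
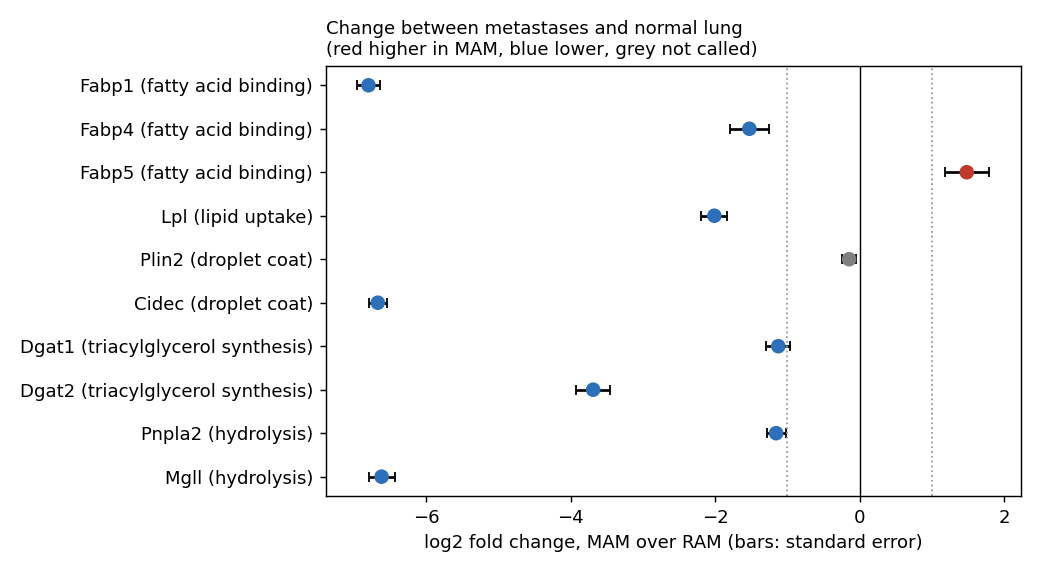
Log2 fold change of MAM over RAM (horizontal axis) for each of the 10 lipid genes, with bars of 1 standard error and dotted lines at a 2-fold change. Fabp1, Cidec and Mgll lie between -6.80 and -6.62, Plin2 is at -0.14 and Fabp5 is at 1.48.

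The order of the lipid genes by mean FPKM differed between the groups. In RAMs it ran Fabp1 (747), Plin2 (508), Lpl (493), Cidec (218), Fabp4 (72.7), Pnpla2 (69.7), Mgll (59.2), Fabp5 (35.5), Dgat1 (19.2) and Dgat2 (18.0). Neighbours whose libraries overlapped were Fabp1 and Plin2, Plin2 and Lpl, Fabp4 and Pnpla2, Pnpla2 and Mgll, and Dgat1 and Dgat2. In MAMs it ran Plin2 (481), Lpl (125), Fabp5 (95.9), Pnpla2 (30.5), Fabp4 (23.0), Dgat1 (9.79), Fabp1 (6.41), Cidec (2.12), Dgat2 (1.40) and Mgll (0.513). There the overlapping neighbours were Lpl and Fabp5, Pnpla2 and Fabp4, Dgat1 and Fabp1, and Cidec and Dgat2. Plin2 and Lpl were in the top 3 of both groups, and Fabp1 and Cidec were in the top 4 of RAMs only.

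The level in MAMs was also expressed as percent of that in RAMs. Fabp1 was at 0.897%, Cidec at 0.985% and Mgll at 1.02%, and single MAM libraries ran from 0.635% to 1.26%. Across the 2067 genes with at least 100 CPM in RAMs, the lowest was 0.621% (Dnah11), 22 genes were under 1.5% and the median was 93.8%. Of the 9 alveolar macrophage markers, Siglecf, Car4, Chil3, Ear1 and Krt79 were at 1.16%, 1.12%, 1.15%, 1.01% and 1.03%, and Ear2, Atp6v0d2, Itgax and Marco were at 1.69%, 2.96%, 17.2% and 63.0%. Fabp1, Cidec and Mgll were thus near the lower end of these values, beside 5 of the 9 markers and below the other 4. The reverse comparison gave a like floor, with a lowest value of 0.660% among 2352 genes with at least 100 CPM in MAMs, and Fabp7 in RAMs was at 1.01% of its MAM level. The source of these low counts was not tested. When 1% of the level of the other group was subtracted, Fabp1 kept 0 counts in each MAM library, Cidec 0 to 16 and Mgll 0 to 8, so that the fold changes of these 3 genes rested on those counts. Dgat2 stood apart, at 7.74% of its RAM level and with 74 to 233 counts left in each MAM library. Lpl was at 24.8%, Fabp4 at 34.7%, Pnpla2 at 44.9%, Dgat1 at 45.8% and Plin2 at 90.5%.

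**Figure D5:**
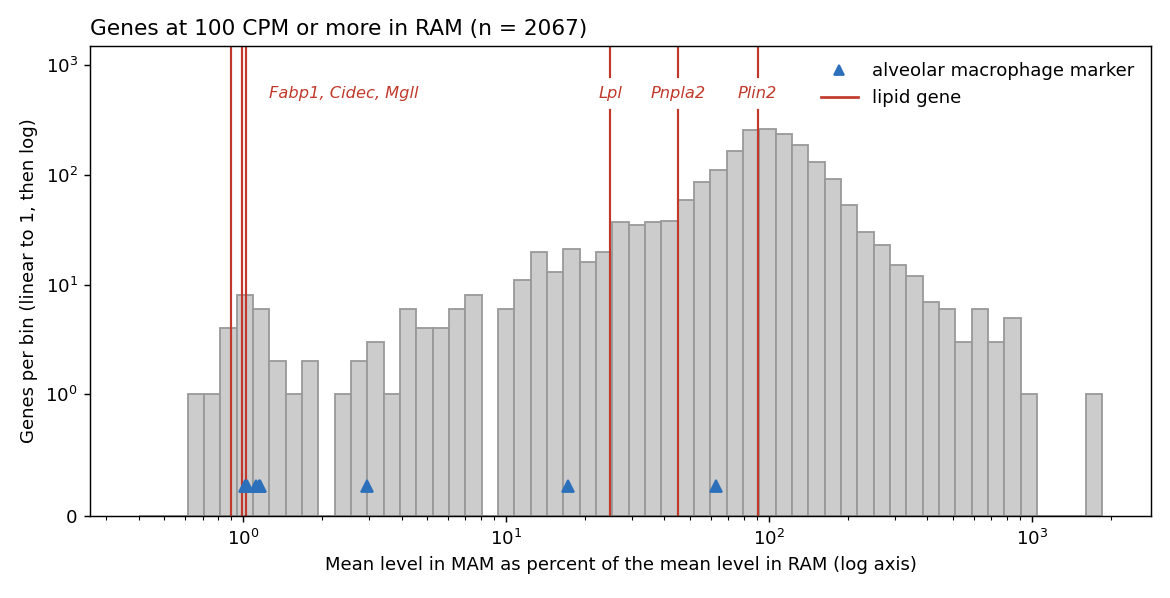
Mean level in MAM as percent of the mean level in RAM (horizontal log axis) for the 2067 genes with at least 100 CPM in RAM, with the number of genes per bin on the vertical axis, linear to 1 and log above. Red lines mark the lipid genes at that level and blue triangles alveolar macrophage markers. Fabp1, Cidec and Mgll lie in the small group of genes near 1%, beside several markers, while Lpl, Pnpla2 and Plin2 lie in the main body of genes.

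The libraries were checked against markers of cell types. By the same rule 15.1% of all genes tested were called lower and 15.3% higher, shares that stand beside every marker count. Of 9 alveolar macrophage markers, 8 were called lower in MAMs and 1, Marco, was not, and the summed level was 12208 to 15181 CPM in RAMs and 423 to 794 in MAMs. All 8 markers of recruited macrophages and monocytes were called higher in MAMs, with 10760 to 12040 CPM against 137 to 148. Both lists moved with the labels, and each holds 1 gene of the sort itself, Itgax for CD11C and Itgam for CD11B. The 8 lipid genes called lower shared their direction with the alveolar macrophage markers. Any gene called lower in MAMs does so, and the shared direction therefore does not link them. Fabp1, Cidec and Mgll were at 0.897%, 0.985% and 1.02% of their RAM level, and Dgat2 at 7.74%. Lpl, Fabp4, Pnpla2 and Dgat1 were at 24.8%, 34.7%, 44.9% and 45.8%. The 8 markers called lower ran from 1.01% (Ear1) to 17.2% (Itgax). Whether the falls were linked was not tested.

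Adipocyte markers were low in both groups, with sums over 8 genes of 17.9 to 25.3 CPM for MAMs and 6.74 to 13.2 CPM for RAMs, and Lipe was the most abundant in each. Lep and Pck1 were at 0 in every library and Adipoq was at 0 in every RAM library. Among MAM libraries, only replicate 4 held Adipoq, at 0.434 CPM, and it also held the most Plin1, at 0.344 CPM. Other adipocyte markers were found in RAM libraries at low levels, with Lipe at 4.83 to 9.29 CPM and Plin1 at 0.497 to 6.07 CPM. The part of adipocytes in the levels of Fabp4, Lpl and Cidec was not tested. A count of 0 allows up to 3 counts in a library, which covers counting error only. Endothelial markers, with 21.7 to 93.1 CPM in MAM libraries and 2.24 to 14.2 in RAM libraries, were called higher in MAMs in 3 of the 3 genes tested, and the most abundant in MAMs was Kdr at 29.0 CPM. Cldn5 and Gpihbp1 were at 0 in every MAM library. Both groups were sorted as CD45+ cells, and the part of endothelial cells in the levels of Fabp5, Cd36 and Lipg was not tested. Summed markers of alveolar epithelium lay between 74.8 and 110 CPM for MAMs and between 113 and 156 CPM for RAMs, mostly Abca3. Epithelial tumour markers lay between 5.20 and 22.3 CPM for MAMs and between 440 and 569 CPM for RAMs, mostly Krt19. Of the 3 tested, 2 were called lower in MAMs and 0 higher. Krt8 went the other way from the sum, at 0.615 to 3.31 CPM in MAM libraries and 0 to 0.205 CPM in RAM libraries. Krt18 was highest in MAM replicate 1, at 8.84 CPM. Summed fibroblast markers, mostly Col3a1 and Dcn, were at 3.49 to 40.6 CPM for MAMs and 0.270 to 6.05 CPM for RAMs, and 2 of the 2 tested were called higher in MAMs. Summed neutrophil markers, mostly Mmp8, were at 23.2 to 82.7 CPM for MAMs and 42.9 to 87.2 CPM for RAMs, and 2 of the 3 tested were called higher in MAMs. The part of these cell types was not tested.

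Genes with the nearest profile were sought for 7 of the lipid genes, by the Euclidean distance between log2 CPM profiles over the 10 libraries, each centred on its own mean. Fabp1 was nearest to Ear1 (distance 0.591), Acaa1b (0.623) and Plet1 (0.663). Cidec was nearest to Ear1 (0.427), Slc6a4 (0.436) and Plet1 (0.520), and Mgll to Siglecf (0.680), Plet1 (0.748) and Ear1 (0.758). Ear1 and Plet1 were thus near to all 3. For Lpl the nearest were Scarb1 (0.580), Cmc2 (0.669) and Smpd2 (0.676), and for Fabp4 Agfg2 (0.749), Rgcc (0.825) and Rara (0.830). Fabp5 was nearest to Gpnmb (0.476), Lhfpl2 (0.683) and Ankrd28 (0.686). Plin2 was nearest to Tra2b (0.250), Nup188 (0.277) and Rnf44 (0.281), whose log2 fold changes were -0.21, -0.13 and -0.13. Genes near in this distance have like fold changes by construction.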

How the data were processed

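RNA of 5 MAM and 5 RAM samples was sequenced by the authors from Ovation RNA-Seq System V2 libraries. Per the submitters' processing notes and the study's methods, reads were aligned to GRCm38 (mm10) with TopHat 2.0.13, and HTSeq 0.6.1 counted uniquely mapped reads on UCSC RefGene models. The authors deposited whole-number counts per gene for each library, and FPKM values from Cufflinks 2.2.1, which scales by transcript length and mapped fragments. Both were used as deposited.

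Libraries were assigned to groups by their sample titles. Nothing in the labels says whether samples of a group came from separate sorts, so p-values measure the spread between these samples. No 2 libraries held identical counts. Counts on genes were 55391447 to 87523247 per MAM library and 50746305 to 72150650 per RAM library. Lines that name no gene, 54.6% to 64.1% of a library, were left out. Intervals and limits cover counting error only.

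Genes whose FPKM averaged 1 or more in one group or the other were tested, without covariates, with edgeR's quasi-likelihood test (edgeR 4.0.16, R 4.3.3), TMM normalization and Benjamini-Hochberg adjustment over all 11571 genes. A call required a change of more than 2-fold and an adjusted p under 0.05, the thresholds of the study. CPM are TMM-normalized, and the standard error is that of the difference between group means of log2 CPM (prior count 2). The fits were tested on simulated data. Alternatives were RLE, upper-quartile and total-count scaling, other filters, DESeq2 1.42.0, limma 3.58.1 on log2 FPKM, a replicate block, other thresholds, subtraction of 1% of the other group's level, and each library left out. Named were the 10 lipid genes, in each related list the 3 called genes with the largest fold changes and the 2 most abundant, the most abundant marker of each cell type, and the 3 nearest profiles. Dnah11 and the other markers given by name were named after their values were seen. The result of 1 further marker list is not reported here. The genes and lists were chosen with earlier results of these data known.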

Additional observations from a re-analysis of the deposited data

Results flagged for a closer look

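Each gene's CPM in each group, and 4 ratios of FPKM, gave 28 groups of 5 libraries, and 3 of them had a library set apart from the rest by a gap of more than 0.710 of the whole range (Dixon's limit for 5 values). Chance alone gives about 1 such group in 20. RAM replicate 4 had 55.0 CPM of Fabp5, where the other RAM libraries had 37.5 to 40.2. RAM replicate 1 had 46.3 CPM of Dgat2, where the others had 32.4 to 34.8, and its ratio of Dgat2 to Dgat1 in FPKM was 1.47, where the others were at 0.786 to 0.901. Both Dgat2 values are of 1 library and share its Dgat2 reads. Without RAM replicate 1 or 4 the same numbers of lipid genes were called, 8 lower and 1 higher in MAMs.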

How the results depend on the processing

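The count of lipid genes lower in MAMs was 8 in all alternatives except limma on log2(FPKM + 1) and on log2(FPKM + 0.1), which gave 7, and glmTreat against a 2-fold change, which gave 6. The gene lost with limma was Dgat1, at log2 fold changes of -0.92 and -0.98. Fabp5 was the only gene called higher under every alternative, a count of 1. No lipid gene changed direction. Leaving out 1 library gave 8 lower and 1 higher each time, and 14 to 15 related genes lower and 10 to 11 higher. With an adjusted p alone, 19 related genes were higher and 19 lower, against 11 and 14 with the 2-fold limit. Over the alternatives other than a left-out library, the log2 fold change of Plin2 ran from -0.37 to -0.08 and never passed the 2-fold limit, although its adjusted p was 0.0113 with upper-quartile scaling and 0.00413 with library totals. Subtracting 1% of the other group's level brought Fabp1 to -16.57, Cidec to -12.36 and Mgll to -12.20, from MAM counts at or near 0, so these values depend on the prior count and are no bound. Over all genes tested, an adjusted p alone was reached by 6504 and the call by 3511. Replicate numbers are shared by the groups, but same-numbered libraries did not deviate together (correlations from -0.04 to 0.03), and 2 of 5 correlated best with their own number. With the replicate block, 8 lipid genes were lower and 1 higher, and 15 related genes were lower and 10 higher.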

Other observations

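Among the MAM libraries, replicates 1 and 2 stood together in several of the genes named, a pattern that was noticed in the values and not tested. They held the least Fabp5 (56.6 and 82.0 CPM, against 146 to 154), the least Fabp4 (8.66 and 7.76 CPM, against 10.8 to 16.5) and the least Slc27a1 (86.3 and 90.0 CPM, against 190 to 219). They held the most Fabp7 (256 and 211 CPM, against 62.5 to 119), the most Lipg (55.9 and 33.3 CPM, against 12.8 to 22.2) and the most Cd36 (1252 and 1191 CPM, against 832 to 1060). Marco, an alveolar macrophage marker that was not called, was also highest there, at 389 and 320 CPM against 89.7 to 213. Dgat1 was lowest there too (27.8 and 20.9 CPM, against 32.1 to 37.9), as were the endothelial marker Kdr (12.1 and 19.9 CPM, against 24.3 to 54.3) and the neutrophil marker Mmp8 (19.9 and 18.4 CPM, against 46.0 to 64.7). Plin2, Lpl, Cidec and Mgll did not set these libraries apart from the other 3. The labels give nothing that separates them.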
